A study of Mus musculus with 24 samples.

Results

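The comparison described here is that of the livers of mice without GCN2 and of wild-type mice on the same control diet at the same circadian time, across every gene of the deposited table for that pair. It used 6 of the 24 liver RNA libraries of the study. The 3 KO libraries came from whole-body GCN2 knockout mice (KO) and the 3 WT libraries from wild-type mice (WT). Mice of both groups ate the Control diet throughout, were housed singly with free access to food and water, and were killed at circadian time 3 h (CT03). Both groups had a 12-h light-dark cycle and 2 days to get used to the diet. Constant darkness began 24 h after other mice of the study changed to a diet without leucine (LeuD), and livers were frozen after 8 days of it. Groups of both genotypes on LeuD, and groups killed at circadian time 15 h (CT15), supplied the rest of the libraries. No source used here gives the strain background, the sex of the mice or the knockout allele.

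GCN2, encoded by Eif2ak4, is a protein kinase that binds uncharged transfer RNA and, when amino acids run short, phosphorylates the translation factor eIF2. Phosphorylated eIF2 lowers general protein synthesis and lets a few messages be translated better, above all that of the transcription factor ATF4, which activates genes of amino acid transport, amino acid synthesis and stress defence. This programme is called the integrated stress response, and the kinases PERK, PKR and HRI feed into it beside GCN2. In the liver it also governs the fasting hormone FGF21. The comparison asks what the loss of the kinase does when the diet is complete in amino acids.

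The promoters of 3 textbook genes of this response are shown because these genes are common readouts of the pathway and ATF4 acts on such genes through a composite element that it binds with C/EBP partners. Each line gives the 250 bases before the gene's start (RefSeq, GRCm38.p6), 5′ to 3′ on the gene's own strand, with the letters that match TGATGNAAN on either strand in capitals. Fgf21 is at chr7:45615491-45615740 on the minus strand, Asns at chr6:7693210-7693459 on the minus strand, and Ddit3 at chr10:127290543-127290792 on the plus strand.
Fgf21: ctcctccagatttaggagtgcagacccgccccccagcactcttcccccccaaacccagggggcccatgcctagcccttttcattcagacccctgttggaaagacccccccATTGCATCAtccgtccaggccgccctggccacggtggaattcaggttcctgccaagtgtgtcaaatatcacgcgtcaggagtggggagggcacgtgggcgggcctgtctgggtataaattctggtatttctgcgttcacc
Asns: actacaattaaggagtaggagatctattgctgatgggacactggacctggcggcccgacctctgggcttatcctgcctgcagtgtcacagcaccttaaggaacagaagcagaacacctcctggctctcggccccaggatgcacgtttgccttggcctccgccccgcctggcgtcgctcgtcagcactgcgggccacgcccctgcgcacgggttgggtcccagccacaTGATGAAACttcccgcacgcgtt
Ddit3: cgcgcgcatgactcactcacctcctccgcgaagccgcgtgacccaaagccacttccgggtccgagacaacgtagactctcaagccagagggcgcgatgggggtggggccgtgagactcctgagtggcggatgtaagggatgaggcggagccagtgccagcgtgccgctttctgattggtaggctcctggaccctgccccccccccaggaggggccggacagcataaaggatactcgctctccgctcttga
The match, on the opposite strand in Fgf21, begins 140 bases before the start of Fgf21 and 23 bases before that of Asns, and the Ddit3 window holds no match. Over windows from 250 bases before to 50 after the start, 10 of the 29 listed response genes found in the promoter table (34.5%) held this motif, against 4.50% of 27025 genes. No other motif was searched for, and a match or its lack in this window says nothing of binding.

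Reads in listed genes numbered 34133203 to 40259270 per library. Albumin took 8.48% to 9.47% of reads in KO livers and 7.08% to 7.91% in WT livers, and the mitochondrially encoded genes 4.26% to 5.10% in KO and 4.89% to 5.52% in WT. All 10 hepatocyte markers were present in every library. Pancreas acinar markers (18 of 20 measured) summed to 50.5, 38.0 and 279 RPM (reads scaled to the library's total in listed genes) in KO livers, against 33.7, 32.6 and 28.9 RPM in WT livers. Kupffer cell markers (12 of 12 measured) summed to 437 to 586 in KO livers and 538 to 1216 in WT livers, and lymphocyte markers (16 of 17) summed to 33.5 to 45.2 in KO livers and 44.0 to 89.6 in WT livers, with both sums highest in WT replicate 1. KO replicate 3 also stood apart from its mates over all genes, where the chi-square of its reads against theirs, divided by the degrees of freedom, was 202 and 235, against 44.6 for the other KO pair. In these bulk samples fewer cells of a type and less RNA per cell cannot be told apart. The labels call the samples biological replicates, and p-values measure only the spread between these 3 and 3 livers.

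Eif2ak4 itself was read in every liver. It had 438, 445 and 374 normalized counts in KO livers, against 308, 336 and 314 in WT livers, so all KO livers lay above all WT livers. The log2 difference was 0.39 ± 0.13 (SE, n = 3 per group; limma, Benjamini-Hochberg adjusted p = 0.57). A count over the whole gene does not check the loss of an exon, so these values say nothing about the label. Of the 15 measured genes for eIF2 kinases, their partners and eIF2B, limma called 0 and 1, Eif2ak4, had an unadjusted p under 0.05; 1 lay above and 3 below without overlap (7.45% and 7.6% of all genes, as given below). The 3 below were the eIF2B subunit genes Eif2b4 and Eif2b1 and the PERK gene Eif2ak3, the last 2 named after their values were seen. Eif2ak3 had 468, 467 and 409 normalized counts in KO livers, against 519, 525 and 855 in WT livers.

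Few genes passed the test between genotypes. Here and below a gene is called at a limma adjusted p under 0.05 over all genes, with log2(normalized count + 1) as the scale of every difference, which understates the change of genes with few reads. Of 14674 genes tested, 2 were called (0.0136%), both higher in KO: Eif3j2 and Tcp11l1. With an unadjusted p under 0.05, 637 genes were higher (4.34%) and 563 lower (3.84%) in KO, 1200 in all (8.18%). A fit of all 24 libraries called 8 of 14238 genes for this comparison (0.0562%), Eif3j2 and Tcp11l1 among them. The authors' deposited table listed 95 genes (0.647%) at an adjusted p under 0.05, 62 of them higher (0.423%) and 33 lower (0.225%) in KO. DESeq2 on the recovered reads listed the same 95 genes, with the same log2 fold changes for Eif3j2 (3.24) and Ddit3 (-0.72). These lists are therefore not separate results. The edgeR test called 1 (0.00681%), Eif3j2, so that it called none in any list described below without that gene. For 94 of the 95 the groups did not overlap, while over all genes 7.45% had all KO above all WT and 7.6% had all KO below (15.0% together). The list of 95 depended on which mice were used. Without KO replicate 3, DESeq2 listed 83 genes, 53 of them among the 95. Without WT replicate 1 it listed 99, sharing 45, and without both it listed 137, sharing 44.

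Eif3j2, which encodes a form of the j subunit of the initiation factor eIF3, gave the lowest p of all genes. It had 605, 513 and 553 normalized counts in KO livers, against 62.0, 53.0 and 62.4 in WT livers, and the groups stood far apart. The difference was 3.22 ± 0.15 (limma adjusted p = 0.000628). Eif3j1, the paralog on chromosome 2, had 1389, 1405 and 1346 normalized counts in KO livers, against 2182, 2239 and 2173 in WT livers. Its difference of -0.67 ± 0.09 was not called by limma (adjusted p = 0.147) and stood at 2.84e-06 as the adjusted p in the authors' deposited table. The opposite differences of the pair did not cancel: the sum over both genes was 1899 to 1995 in KO livers, against 2235 to 2292 in WT livers. Eif3j2 made up 26.7% to 30.3% of that sum in KO and 2.31% to 2.79% in WT.

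The coding sequences of the pair, 786 bases in Eif3j1 and 792 in Eif3j2, matched at all 786 aligned positions in the GRCm38 transcripts, and 90.8% of the 50-base words of Eif3j2 transcripts also occur in transcripts of Eif3j1. No source used here says how the authors assigned reads that fit more than 1 gene, and the split between the copies is uncertain. The neighbours of the pair showed the same split. Gm3650, next to Eif3j2 on chromosome 18 and named here after its values were seen, had 52.1, 51.2 and 51.3 normalized counts in KO livers, against 0, 1.77 and 0 in WT livers (limma adjusted p = 0.0615). Spg11, which lies next to Eif3j1 and encodes spatacsin, a protein of lysosome reformation, had 317, 319.6 and 288 in KO livers, against 626, 669 and 606 in WT livers (-1.04 ± 0.12, limma adjusted p = 0.0688). Of the 50-base words of Gm3650, 92.8% occur in Spg11 transcripts and 67.2% in Eif3j1 transcripts. Spg11 and Eif3j1 overlap at their ends. Both genes on chromosome 18 were thus high, and both on chromosome 2 low, in all 3 KO livers; whether reads passed between the copies was not tested.

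**Figure D1:**
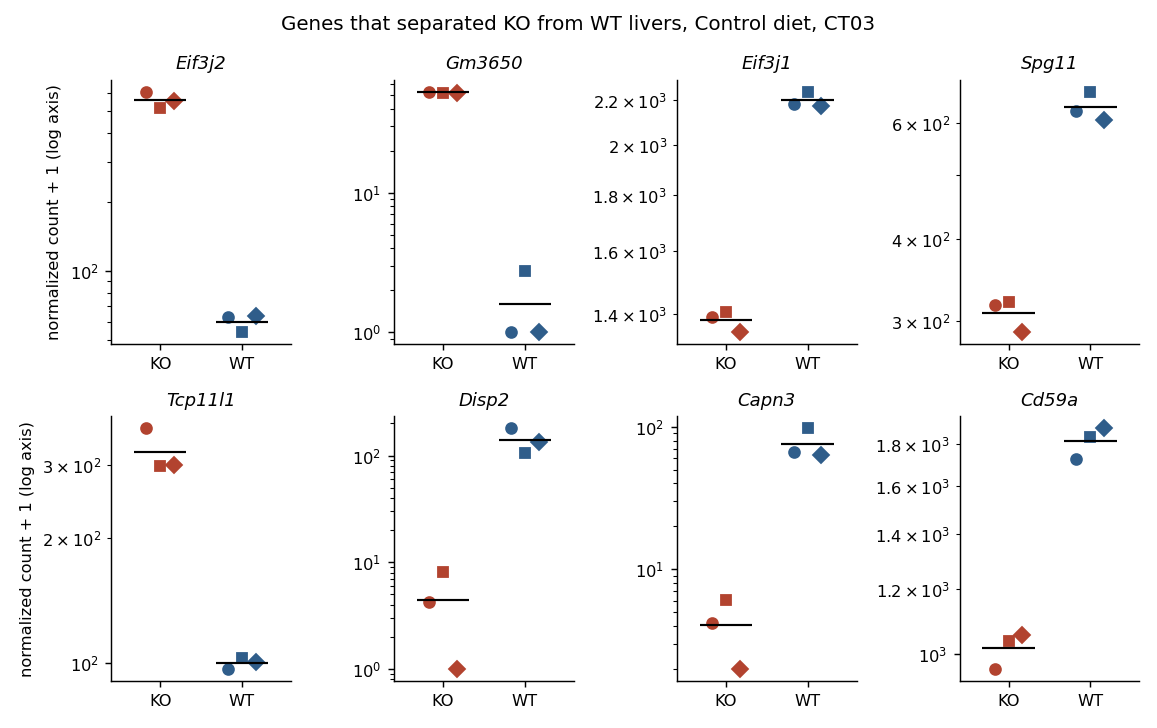
Normalized count + 1 (log axis, its own range in each panel) of 8 genes in KO (red, left) and WT (blue, right) livers on the Control diet at CT03; circles, squares and diamonds are replicates 1, 2 and 3 and bars are group means. In each panel the 3 KO livers lie on 1 side of the 3 WT livers, from Eif3j2, at 513 to 605 in KO livers against 53.0 to 62.4 in WT livers, to Disp2, at 0 to 7.17 in KO livers against 104 to 178 in WT livers.

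Tcp11l1, a gene of chromosome 2 whose role is little known, was the second called gene. It had 366, 297 and 299 normalized counts in KO livers, against 95.8, 102 and 99.6 in WT livers, and the lowest KO liver lay well above the highest WT liver. The difference was 1.68 ± 0.15 (limma adjusted p = 0.0421). This call was lost when any 1 of the 6 libraries was left out, while Eif3j2 was called each time. In fits chosen after seeing the data, limma called Tcp11l1 without KO replicate 3 and WT replicate 1 together. DESeq2 listed it without either of these livers and without both.

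Tcp11l1, Eif3j1 and Spg11 are on chromosome 2, as is Eif2ak4, and genes near Eif2ak4 made up a large share of the authors' list. Positions here are distances from Eif2ak4 in the GRCm38 annotation (GENCODE M21), in which 14638 of the 14674 gene IDs were found; the deposited values were counted on GRCm39, so no gene coordinates are given. Within 15 Mb of Eif2ak4, a window chosen after seeing the data, 16 of 244 genes (6.56%) were in the authors' list, against 3 of 876 farther along the chromosome (0.342%) and 76 of 13518 on other chromosomes (0.562%). Groups without overlap made up 28.3% of the genes in that window and 14.6% of those on other chromosomes. By distance on either side, 9 of 94 genes within 5 Mb were in the list, none of 59 between 5 and 10 Mb, 7 of 91 between 10 and 15 Mb, and none of 23 between 15 and 20 Mb. Of the 7, 4 lay between -14.3 and -13.2 Mb and 3 between 10.7 and 14.1 Mb, on opposite sides of Eif2ak4. Groups without overlap made up 30.9%, 18.6%, 31.9% and 34.8% of the genes at these distances, in the same order. Between 20 and 40 Mb the share was 15.8%. By this measure the differences did not end at 15 Mb. Limma called 0 of the 153 genes within 10 Mb, DESeq2 called 9 and edgeR 0, and 36 had an unadjusted p under 0.05.

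Within 5 Mb, genes of unlike roles stood in the authors' list, 4 higher and 5 lower in KO. Disp2, a membrane protein related to the hedgehog release factor Dispatched, was close to 0 in KO livers with 3.19, 7.17 and 0 normalized counts, against 178, 104 and 132 in WT livers (-5.39 ± 0.72, limma adjusted p = 0.156). Capn3, a calcium-dependent protease best known from muscle, had 3.19, 5.12 and 1.01 normalized counts in KO livers, against 65.7, 96.3 and 62.4 in WT livers (-4.32 ± 0.48, limma adjusted p = 0.0688). Both genes were read at most a few times in any KO liver and many times in every WT liver. Ganc, a glucosidase gene that overlaps Capn3, went the other way, with 967, 952 and 882 in KO livers, against 638, 588 and 595 in WT livers (0.62 ± 0.10, limma adjusted p = 0.32). Reads in a stretch that belongs to both of a pair, as here, cannot be told apart, nor can those of genes on opposite strands, since the library kit as named does not mark strand. Shf, an adapter protein gene, had 778, 803 and 743 in KO livers, against 339, 469.8 and 485 in WT livers (0.86 ± 0.16, limma adjusted p = 0.433). The other 3 of the 9 were Chp1, a calcium-binding partner of sodium-proton exchangers, at -0.75 ± 0.16, Bloc1s6, a subunit of the complex that builds lysosome-related organelles, at 0.64 ± 0.12, and the zinc-finger gene Zfp106 at 0.47 ± 0.10. Capn3, Chp1, Bloc1s6 and Zfp106 are named here after their values were seen. DESeq2 listed Disp2, Capn3, Ganc, Shf and Chp1 with KO replicate 3, WT replicate 1 or both left out, and Bloc1s6 and Zfp106 with KO replicate 3 left out alone.

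At -14.3 Mb from Eif2ak4, the paralogs Cd59a and Cd59b, which encode cell-surface inhibitors of the complement membrane attack complex, were both low in KO livers. Cd59a had 959, 1037 and 1055 normalized counts in KO livers, against 1724, 1833 and 1878 in WT livers (-0.83 ± 0.10, limma adjusted p = 0.0749). Cd59b had 29.8, 33.8 and 24.1 in KO livers, against 78.9, 97.1 and 136 in WT livers (-1.77 ± 0.28, limma adjusted p = 0.32). The copies share 5.32% of the 50-base words of Cd59b. The other 5 of the 7 listed genes were higher in KO, Tcp11l1 (-13.7 Mb) and Them7 (-13.2 Mb) on the same side as Cd59a, and Gm14022 (10.7 Mb), Slc23a2 (13.7 Mb) and Gpcpd1 (14.1 Mb) on the other. All but Tcp11l1 are named after their values were seen. DESeq2 listed Them7 with KO replicate 3 left out alone, Gpcpd1 with WT replicate 1 left out alone, and Slc23a2 in none of these fits. Gpcpd1 encodes a glycerophosphocholine phosphodiesterase and Slc23a2 a vitamin C transporter. As the strains of the knockout and the wild type are unknown here, differences near the gene that came with the targeted allele and those that follow from the loss of GCN2 cannot be told apart.

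**Figure D2:**
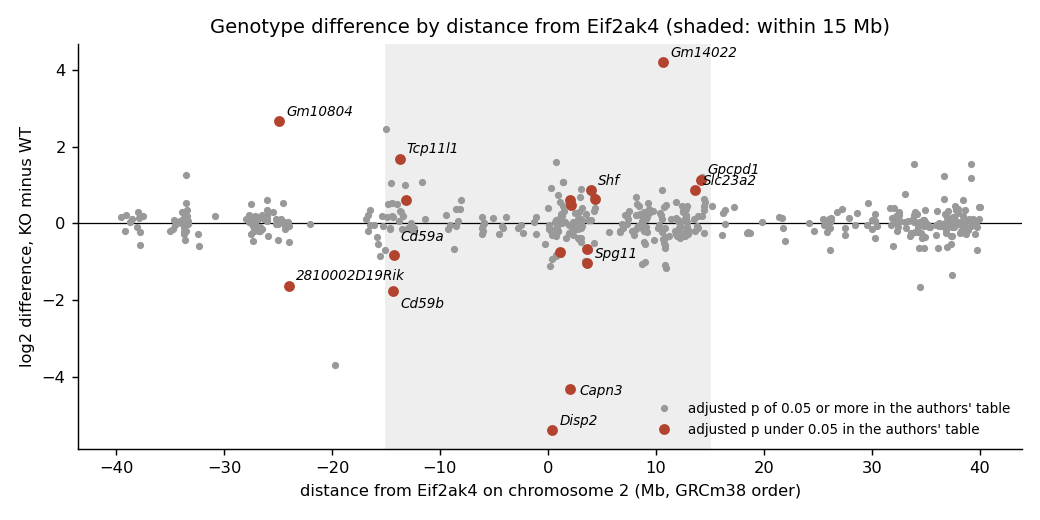
Log2 difference (KO minus WT, log2(normalized count + 1)) of genes on chromosome 2 against distance in Mb from Eif2ak4 in GRCm38; red points had an adjusted p under 0.05 in the authors' deposited table and the shading marks 15 Mb on either side. Of the 19 red points on the chromosome, 16 lie in the shaded window.

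Set beside the other conditions of the study, most of the listed genes near Eif2ak4 had the same direction. The 18 libraries of the other conditions share no library with this comparison, and ranges over several conditions are in counts scaled over all 24 libraries. Eif3j2 ranged over 598 to 883 normalized counts in the 9 other KO livers, against 49.4 to 102 in the 9 other WT livers. Its difference was 3.59 ± 0.20 on Control at CT15, 3.48 ± 0.17 on LeuD at CT03 and 3.29 ± 0.22 on LeuD at CT15, each called by limma (adjusted p = 0.00214, 0.000563 and 0.000418), where 0.0795%, 0.0414% and 1.82% of all genes were called. Over all 12 KO and 12 WT livers the genotypes did not overlap for Eif3j2, Eif3j1 (1359 to 2050 in KO, 2117 to 2896 in WT), Spg11 (162 to 438 in KO, 581 to 711 in WT) and Cd59a (448 to 1145 in KO, 1584 to 2187 in WT). Tcp11l1 differed by 0.83 ± 0.34, 0.88 ± 0.16 and 0.94 ± 0.19 in the same order of conditions, called by limma in the last (adjusted p = 0.0457), and by 1.68 ± 0.15 here. Of the genes of the authors' list within 15 Mb that were measured everywhere, 10 of 13 (76.9%) had the same direction in all 3 other conditions. Of the list's genes elsewhere 18 of 76 did (23.7%), and of all genes 16.7%. On Control at CT15 alone the shares were closer, with the same direction in 14 of 16 genes near Eif2ak4 (87.5%), 62 of 78 elsewhere (79.5%) and 59.4% of all genes. On LeuD at CT03 they were 10 of 13 (76.9%), 33 of 76 (43.4%) and 46.2%, and on LeuD at CT15 11 of 13 (84.6%), 44 of 77 (57.1%) and 51.5%.

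**Figure D3:**
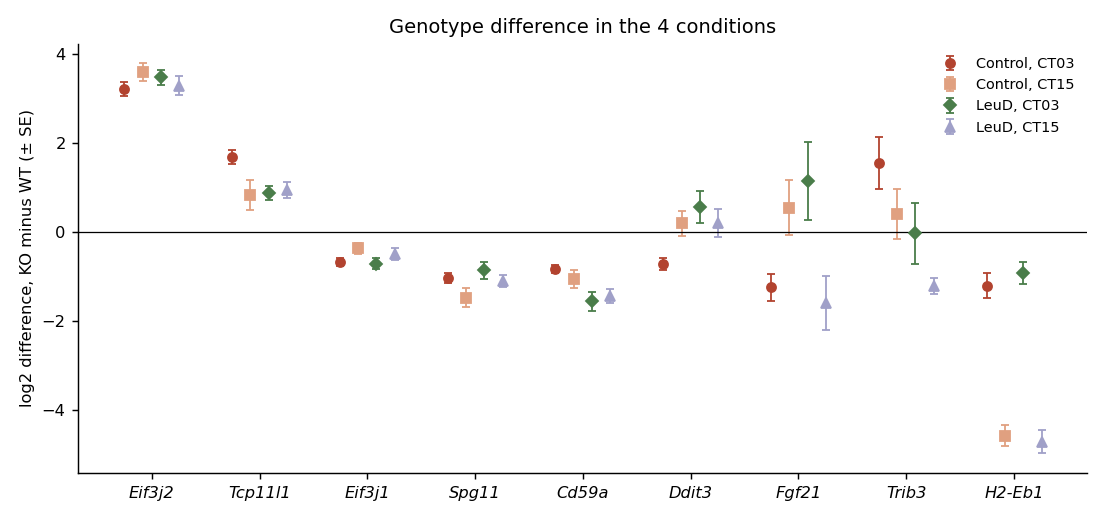
Log2 difference between KO and WT livers (KO minus WT, limma, bars are SE, n = 3 per group) of 9 genes in the 4 combinations of diet and time, with Control at CT03 leftmost for each gene. Eif3j2 lies between 3.22 and 3.59 throughout, and H2-Eb1 is lowest at CT15 on both diets. Ddit3 is below 0 on Control at CT03 alone, and Fgf21 is below 0 there and on LeuD at CT15.

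The genes of the integrated stress response list were split evenly in direction. Of its 32 measured genes (33 listed) limma called 0, the authors' deposited table listed 2, Ddit3 and Fgf21, both lower in KO, and DESeq2 and edgeR called 2 and 0. There were 5 with an unadjusted p under 0.05. The groups did not overlap for 1 gene above and 3 below, set against 7.45% and 7.6% of all genes, 16 differences were positive and 16 negative, and the median was 0.00, against -0.01 over all genes. Ddit3, which encodes the stress transcription factor CHOP, had 192, 207 and 195 normalized counts in KO livers, against 321, 298 and 361 in WT livers (-0.72 ± 0.14, limma adjusted p = 0.433). Fgf21, the liver-made hormone of fasting and protein restriction, had 40.4, 39.9 and 61.4 in KO livers, against 163, 98.0 and 86.4 in WT livers (-1.25 ± 0.31, limma adjusted p = 0.529). For both genes every KO liver lay below every WT liver. DESeq2 lost Fgf21 without WT replicate 1, and lost both genes without that liver and KO replicate 3. In these fits it listed other genes of the list, all with positive differences over the 6 livers. They were Asns and Cebpb without WT replicate 1, and Cebpb, Chac1 and Cth without both livers. Cebpb (0.80) and Cth (1.03) are named here after their values were seen. Of the promoters printed above, that of Fgf21 holds the searched motif and that of Ddit3 does not.

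Other textbook targets of ATF4 varied widely between mice of a group. Trib3, a pseudokinase that feeds back on ATF4, had 639, 149.5 and 871 normalized counts in KO livers, against 129, 177 and 146 in WT livers (1.55 ± 0.58, limma adjusted p = 0.589). Asns, asparagine synthetase, had 579.8, 241 and 392 in KO livers, against 314, 91.9 and 179 in WT livers (1.13 ± 0.47, limma adjusted p = 0.606). KO replicate 2 was the lowest KO liver for both and overlapped the WT livers. The same mouse had the highest KO value of Chac1, a glutathione-degrading enzyme whose gene lies 0.963 Mb from Eif2ak4, at 69.2, 202 and 48.3 in KO livers, against 85.4, 41.5 and 39.4 in WT livers. The transcripts of the regulators Atf4 (-0.23 ± 0.21) and Atf5 (-0.15 ± 0.37) overlapped between groups, as did the serine synthesis gene Psat1 (-0.27 ± 0.34), the stress hormone Gdf15 (-0.41 ± 0.41) and the chromatin protein gene Nupr1 (-0.17 ± 0.43). ATF4 is controlled mainly at translation, which transcript counts do not measure.

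In the other conditions some genes of the list kept their direction and others did not. Asns differed by 2.13 ± 0.59 on Control at CT15, 1.91 ± 0.72 on LeuD at CT03 and 1.67 ± 0.22 on LeuD at CT15, positive as here and called by limma in the last (adjusted p = 0.0158). Trib3 differed by 0.41 ± 0.56, -0.04 ± 0.69 and -1.22 ± 0.18 in the same order, and was called with the opposite direction in the last (limma adjusted p = 0.0215). Ddit3 differed by 0.19 ± 0.28 on Control at CT15, 0.55 ± 0.36 on LeuD at CT03 and 0.20 ± 0.31 on LeuD at CT15. Fgf21 differed by 0.55 ± 0.62, 1.15 ± 0.88 and -1.59 ± 0.61 in the same order, and neither gene was called in these. The change of the genotype effect was itself tested. For Ddit3 the effect at CT03 minus that at CT15 was -0.90 ± 0.33 and the effect on Control minus that on LeuD was -1.26 ± 0.42, with limma adjusted p of 0.977 and 0.309. For Fgf21 these were -1.79 ± 0.75 and -2.39 ± 1.04, and neither was called.

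**Figure D4:**
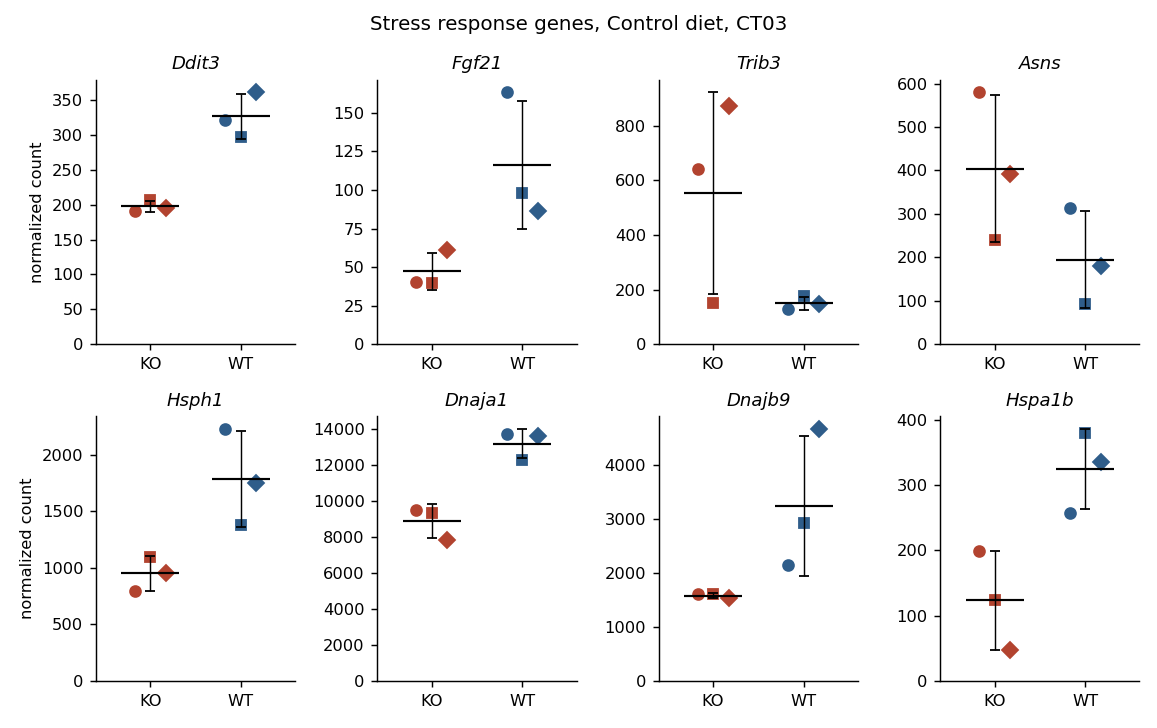
Normalized counts (linear axes, each with its own range) of 4 integrated stress response genes and 4 chaperone genes in KO (red, left) and WT (blue, right) livers on Control at CT03; points are livers, lines are means and bars are SD (n = 3). Ddit3, Fgf21, Hsph1, Dnaja1, Dnajb9 and Hspa1b separate with KO below WT, while Trib3 and Asns overlap.

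Chaperone transcripts leaned lower in KO livers, although limma called none of them. Of 20 heat shock genes, 11 had all KO below all WT and 1, the mitochondrial chaperonin Hspd1, named after its values were seen, all above (7.6% and 7.45% of all genes). The median difference was -0.34, and 8 genes had an unadjusted p under 0.05, all lower. Hsph1, a nucleotide exchange factor for HSP70, had 796, 1098 and 956 normalized counts in KO livers, against 2226, 1380 and 1752 in WT livers (-0.90 ± 0.19, limma adjusted p = 0.529). Dnaja1, an HSP70 cochaperone, had 9533, 9351 and 7833 in KO livers, against 13728, 12280 and 13636 in WT livers (-0.57 ± 0.12, limma adjusted p = 0.525). Both were in the authors' list. DESeq2 kept both without KO replicate 3, neither without WT replicate 1, and Hsph1 but not Dnaja1 without both livers. The inducible HSP70 gene Hspa1b, named after its values were seen, had 199, 124 and 47.3 in KO livers, against 258, 379.8 and 336 in WT livers.

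Of 23 genes for chaperones of the endoplasmic reticulum and the unfolded protein response, 20 differences were negative and the median was -0.18. The groups did not overlap for 3 genes, all below (13.0%, against 7.6% of all genes). Dnajb9, a cochaperone of BiP induced by the IRE1 branch, had 1614, 1604 and 1530 in KO livers, against 2146, 2923 and 4675 in WT livers (-0.96 ± 0.25, limma adjusted p = 0.534). The KO livers lay close together and the WT livers were spread widely, and DESeq2 lost the gene without KO replicate 3 though the authors' list holds it. Manf, a secreted reticulum protein, differed by -0.84, with groups that overlapped.

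**Figure D5:**
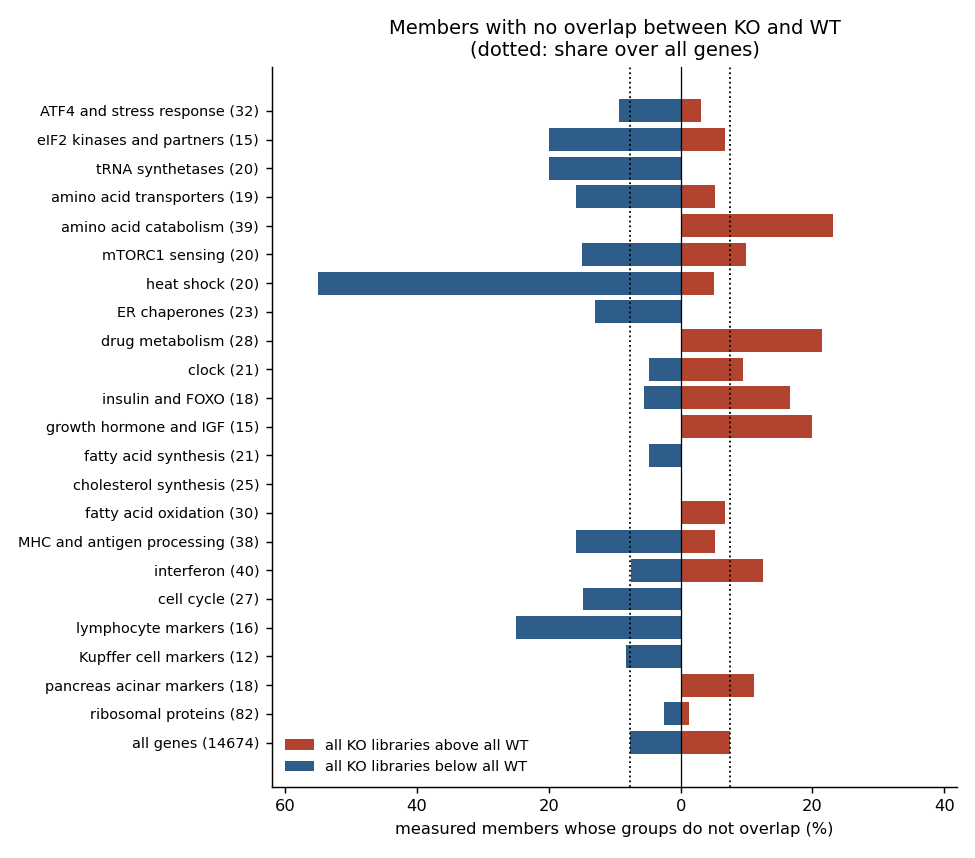
Share (%) of the measured members of each gene list with all 3 KO livers above (red, to the right) or below (blue, to the left) all 3 WT livers; dotted lines mark the same share over all genes, 7.45% above and 7.6% below. Heat shock reaches 11 of 20 genes below and amino acid catabolism 9 of 39 above.

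Genes of amino acid use and drug metabolism leaned the other way. Of 39 amino acid catabolism genes, 34 differences were positive and the median was 0.21. All KO lay above all WT for 9 (23.1%, against 7.45% of all genes) and below for none (against 7.6%). Limma called 0, with 4 at an unadjusted p under 0.05, and the authors' deposited table listed none. Oat, ornithine aminotransferase, had 41980, 42771 and 79650 normalized counts in KO livers, against 24247, 26555 and 39190 in WT livers. Cps1, which makes carbamoyl phosphate for the urea cycle, had 143604, 130231 and 186660 in KO livers, against 121727, 96163 and 92587 in WT livers. Neither was called by limma (adjusted p = 0.576 and 0.605). For both genes KO replicate 3 was highest. The summed hepatocyte markers, which include Cps1, were also higher in KO livers, at 119505 to 136229 RPM, against 106239 to 114157 in WT livers. Albumin made up most of that sum, with 8.48% to 9.47% of reads in KO livers and 7.08% to 7.91% in WT livers. Of the 10 markers 3 lay above without overlap and none below, and 3 differences were negative. The part of these markers in the catabolism differences was not tested.

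Of 28 drug metabolism genes, most of them cytochrome P450 genes beside their partner Por, regulators such as Nr1i3 and other enzymes, 6 had all KO above all WT (21.4%, against 7.45% of all genes), none below, and the median was 0.44. All 6 were cytochrome P450 genes. Cyp2a5, a coumarin hydroxylase, had 10050, 6551 and 7857 normalized counts in KO livers, against 3743, 3207 and 5808 in WT livers (0.96 ± 0.24, limma adjusted p = 0.529). It was in the authors' list, as was Cyp2c37, named after its values were seen. Cyp2a5 was in none of the 3 DESeq2 lists made without KO replicate 3, WT replicate 1 or both, and Cyp2c37 in the last of them. Of 20 male-biased liver genes 19 differences were negative with a median of -0.64, and of 12 measured female-biased genes 10 were positive with a median of 0.98. Only 1 gene of these lists separated without overlap, the complement gene C6 (-0.82, below). KO replicate 3 was the lowest of the 6 livers for the male-biased C6 (2707 normalized counts) and Serpina1e (63411). The same liver was the highest for the female-biased Cyp2b9 (1220) and Nipal1 (760). These are the 2 genes with the lowest p of each list, and the part of that liver was not tested. Of 21 fatty acid synthesis genes 1 lay below (4.76%, against 7.6% of all genes) and none above. Of 25 cholesterol genes none separated, and of 30 fatty acid oxidation genes 2 lay above (6.67%, against 7.45% of all genes) and none below.

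Limma called 0 of the tRNA synthetase, amino acid transporter and mTORC1 genes, of which 3, 5 and 5 had an unadjusted p under 0.05, and the authors' deposited table listed 1, Fnip1. Of 20 cytosolic tRNA synthetases, which charge tRNA and so bear on the signal GCN2 reads, 4 lay below without overlap (20%, against 7.6% of all genes) and none above. The tryptophan enzyme Wars had 688, 783 and 652 in KO livers, against 886, 846 and 907 in WT livers (-0.32 ± 0.11, limma adjusted p = 0.576), and the serine enzyme Sars differed by -0.24 ± 0.09. Of 19 measured amino acid transporters 1 lay above and 3 below (5.26% and 15.8%), among them Slc7a7, the light partner of a cationic amino acid exporter, at -0.62. Slc1a2, with the lowest p of the transporters, was also below, at -0.53 ± 0.15 (limma adjusted p = 0.544). This gene lies -15.7 Mb from Eif2ak4 on chromosome 2. It differed by -0.71 on Control at CT15, -1.44 on LeuD at CT03 and -1.76 on LeuD at CT15. Limma called it in the last (adjusted p = 0.0163). Of 20 mTORC1 pathway genes 2 lay above and 3 below (10% and 15.0%, against 7.45% and 7.6% of all genes). Those above were the partners Flcn (0.60) and Fnip1, which act on Rag GTPases at the lysosome. Fnip1 had 1781, 1306 and 1463 in KO livers, against 1057, 1014 and 848 in WT livers (0.63 ± 0.15, limma adjusted p = 0.529). It was in the authors' list. DESeq2 lost it without KO replicate 3 alone and without WT replicate 1 alone, and listed it without both livers. Of 82 ribosomal protein genes 1 lay above and 2 below, and of 23 autophagy genes 3 above and 1 below.

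Among the genes with the lowest p outside chromosome 2 and higher in KO were Fam134b, Lpin2 and Crebrf. Fam134b, a receptor for autophagy of the endoplasmic reticulum, had 3302, 2998 and 4331 normalized counts in KO livers, against 1936, 1821 and 1515 in WT livers (1.0 ± 0.16, limma adjusted p = 0.32). Lpin2, a phosphatidate phosphatase, had 5974, 4523 and 5255 in KO livers, against 3287, 2908 and 2742 in WT livers (0.81 ± 0.13, same adjusted p). Crebrf, a regulator of CREB3 and of energy storage, had 1088, 1012 and 1035 in KO livers, against 596, 360.3 and 318 in WT livers (1.35 ± 0.22, same adjusted p). All 3 were in the authors' list and stayed there without KO replicate 3, without WT replicate 1 and without both, as did Rbm33 (0.86 ± 0.14), St7 (0.79 ± 0.13) and Klf9. Klf9, a glucocorticoid-induced transcription factor, had 4162, 3741 and 3461 in KO livers, against 2770, 2468 and 2092 in WT livers (0.64 ± 0.13, limma adjusted p = 0.51). A second glucocorticoid-induced gene, Tsc22d3, stood lower, with 1347, 1560 and 1609 in KO livers, against 2143, 2401 and 1993 in WT livers (-0.53 ± 0.12, limma adjusted p = 0.529). Ppargc1a, the coactivator of gluconeogenesis and mitochondrial genes, had 311, 473 and 524 in KO livers, against 258, 169.6 and 149 in WT livers (1.18 ± 0.27, limma adjusted p = 0.529). Both were in the authors' list. DESeq2 lost Ppargc1a without KO replicate 3 alone, and lost Tsc22d3 without WT replicate 1 and without both livers.

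Genes with the lowest p among those lower in KO included histone genes. H2afx, the variant phosphorylated at DNA breaks, had 296, 327 and 223 in KO livers, against 552, 469.8 and 614 in WT livers (-0.96 ± 0.18, limma adjusted p = 0.433), and the linker histone gene Hist1h1c had 1543, 1687 and 1802 in KO livers, against 3671, 2454 and 2872 in WT livers (-0.82 ± 0.16, same adjusted p). Both stayed in each of the 3 DESeq2 lists with livers left out. Of 27 cell cycle genes 23 differences were negative, with 4 below without overlap (14.8%, against 7.6% of all genes) and none above. Plk1, a kinase of mitosis and 1 of the 4, had 6.38, 10.2 and 7.04 normalized counts in KO livers, against 89.2, 15.9 and 16.4 in WT livers. WT replicate 1, the liver with the highest Kupffer cell and lymphocyte sums, stood far above the rest, and its part in the cell cycle counts was not tested. Hamp, which encodes the iron hormone hepcidin, had 16693, 9056 and 14156 in KO livers, against 36902, 17365 and 34887 in WT livers (-1.13 ± 0.33, limma adjusted p = 0.544); it was in the authors' list and in none of the lists with livers left out.

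The clock genes were sampled at 1 time here, so a level cannot be told apart from a phase. Of 21 clock and clock-output genes 2 lay above, Cry2 and Rora (the second named after its values were seen), and 1 below without overlap (9.52% and 4.76%, near the 7.45% and 7.6% of all genes); limma called 0, with 3 at an unadjusted p under 0.05. Tsku, a secreted protein whose liver transcript is rhythmic, had 223, 451 and 255 in KO livers, against 1085, 924 and 3155 in WT livers (-2.31 ± 0.47, limma adjusted p = 0.497). It was in the authors' list, and DESeq2 lost it without KO replicate 3 and without that liver and WT replicate 1. The clock genes Dbp and Arntl differed more between mice of a group than between groups. Dbp, an output transcription factor, had 3441, 54.3 and 564 in KO livers, against 653, 106 and 532 in WT livers. Arntl, which encodes the core activator BMAL1, had 229.8, 1139 and 956 in KO livers, against 698, 682 and 813 in WT livers. KO replicate 1 was the highest of the 6 for Dbp and the lowest for Arntl. The mice had been in darkness for 8 days, and the labels used here record no phase for each mouse.

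Antigen presentation and interferon genes split. Of 38 measured genes of antigen presentation 2 lay above and 6 below without overlap (5.26% and 15.8%, against 7.45% and 7.6% of all genes), 26 differences were negative and the median was -0.12. The class II gene H2-Eb1 had 444, 738 and 416 normalized counts in KO livers, against 1658, 963 and 1056 in WT livers (-1.21 ± 0.27, limma adjusted p = 0.529), and H2-DMb1, which loads peptides on class II, differed by -0.99. Class II genes are borne by macrophages, dendritic and B cells. Lymphocyte markers had negative differences in 16 of 16 genes, 4 of them without overlap, and Kupffer cell markers in 11 of 12, with WT replicate 1 the highest in both sums. Their part in the class II values was not tested, and H2-Eb1 was in none of the DESeq2 lists made without KO replicate 3, WT replicate 1 or both. Of 40 interferon-stimulated genes 5 lay above and 3 below (12.5% and 7.5%); the antiviral enzyme Rsad2 had 687, 986 and 875 in KO livers, against 563, 487 and 330.4 in WT livers (0.90 ± 0.22, limma adjusted p = 0.529). It was in the authors' list, and DESeq2 lost it without KO replicate 3.

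For a pair of class I genes the KO mice differed widely from each other. H2-T10, named after its values were seen, had 703, 70.7 and 659 normalized counts in KO livers, against 78.9, 60.1 and 68.9 in WT livers. H2-K2, likewise chosen, had 834, 157 and 380.3 in KO livers, against 105, 124 and 126 in WT livers. KO replicate 2 was near the WT livers for both genes and the other KO livers were far above. H2-K2 was in the authors' list and in none of the 3 DESeq2 lists with livers left out. Genes of this complex differ in sequence between mouse strains and have close paralogs, so how many reads of each are counted on 1 reference genome is uncertain.

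The genotype effect at CT03 differed from that at CT15 on the Control diet for 4 genes of 14551 tested (0.0275%), all in this gene complex on chromosome 17. In this test of the difference of differences over 12 libraries, 728 genes (5.0%) had an unadjusted p under 0.05, and edgeR called the same 4. At CT03, H2-Eb1 ranged over 435 to 768 normalized counts in the KO livers, against 999.8 to 1718 in the WT livers. At CT15 it ranged over 33.4 to 51.8 in the KO livers, against 796 to 1223 in the WT livers. The effect at CT03 minus that at CT15 was 3.38 ± 0.39 for H2-Eb1, and 4.39 ± 0.56 for H2-Q5, 2.99 ± 0.39 for H2-T23 and 2.70 ± 0.34 for H2-T22, class I genes (limma adjusted p = 0.0267 for each). The KO livers of CT15 were the low ones, since the WT ranges at CT03 and CT15 overlapped for H2-Eb1. The number of calls depended on the livers used: leaving out 1 of the 12 gave 0 to 4 called genes, and 0 without KO replicate 1 or WT replicate 2 or 3 of CT03 or WT replicate 2 or 3 of CT15. On LeuD, H2-Eb1 differed between KO and WT by -0.93 ± 0.24 at CT03 and by -4.71 ± 0.27 at CT15. The livers of each time came from different mice, so a difference between the KO mice used at CT03 and at CT15 and a difference between times cannot be told apart.

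Between diets at CT03, limma called 0 of 14497 genes for a different genotype effect, with 1906 (13.1%) at an unadjusted p under 0.05, and edgeR called 1 (0.0069%), Phlpp1, a phosphatase of AKT, at 0.99 ± 0.13 (limma adjusted p = 0.0714, edgeR 0.0412). Without replicate 3 of the KO livers on LeuD at CT03 limma called 1061. The count of genes whose genotype effect differed between diets therefore rested on that 1 library. None of the genes near Eif2ak4 described above was called in either test. For Eif3j2 the effect at CT03 minus that at CT15 was -0.37 ± 0.24 and the effect on Control minus that on LeuD -0.25 ± 0.22 (limma adjusted p = 0.984 and 0.611).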

How the data were processed

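Liver RNA libraries of 24 mice in 8 groups of 3 were deposited by the authors as tables of 6 libraries each; 6 tables were used and 4 were not used here. Reads were trimmed and counted with Trimmomatic 0.36, STAR 2.5.2b, featureCounts and Subread 1.5.2 on GRCm39, with DESeq2 and DESeq also named, per the submitters' processing notes, which as used here give no settings or roles. The deposited values are a signal, gene counts that the authors divided by 1 size factor per library, which gave back whole reads for 100% of values (tolerance 0.01) and 0 reads differed in the 12 cases where 2 tables hold the same library. The log2 fold changes and the p-values, raw and adjusted, of the authors' deposited table were copied, not recomputed. Genes with few reads had been left out of that table, whose lowest sum was 61 reads.

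The test was limma 3.58.1 (R 4.3.3) with its trend option, on log2(normalized count + 1), 3 KO against 3 WT livers, over 14674 genes with Benjamini-Hochberg adjustment and a threshold of 0.05. Values after ± are SE unless SD is named. Differences of genotype effects were fitted on the recovered reads, scaled together over the 24 libraries, for genes with a mean of at least 10. Because reads could be recovered, edgeR 4.0.16 and DESeq2 1.42.0 were run as alternatives, with other pseudocounts, filters and scalings and each library left out; fits without KO replicate 3 and WT replicate 1 were chosen after seeing the data. The fits were tested on simulated data.

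The gene lists (39) and the genes named were chosen with earlier results of these data known. Named genes are Eif2ak4, called genes, Eif3j1, Eif3j2, fixed stress and clock genes, the 2 lowest p of each list, and up to 10 genes with the lowest p in each direction with a mean of at least 50. Outside that rule, Gm3650, Gm14022, Capn3, Chp1, Bloc1s6, Zfp106, Them7, Gpcpd1, Slc23a2, Eif2ak3, Eif2b1, Cebpb, Cth, Hspd1, Hspa1b, Cyp2c37, Rora, H2-T10, H2-K2 and Phlpp1 were named after their values were seen. The correlation of same-numbered KO and WT libraries in their deviations from the group means was -0.047, 0.061 and -0.022, so replicate numbers were not taken to pair mice.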

Additional observations from a re-analysis of the deposited data

Results flagged for a closer look

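The genotype effect on the Control diet was less negative at CT03 than at CT15 for 4 genes of the major histocompatibility complex, by a limma test of the difference itself. The effect at CT03 minus that at CT15 was 4.39 for H2-Q5, 3.38 for H2-Eb1, 2.99 for H2-T23 and 2.70 for H2-T22 on the log2 scale. In each of these the 3 KO livers at CT15 lay below every other liver on the Control diet. No value in the labels tells whether the KO mice used at each time shared a litter or a source.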

How the results depend on the processing

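Eif3j2 was called under every alternative run. The count of 2 called genes at CT03 on Control became 5 with a pseudocount of 5, 1 with a mean of at least 100, 1 with edgeR, 95 with DESeq2 and 8 with 24 libraries in the fit. It was 2 with a pseudocount of 0.5, with a mean of at least 10 and with TMM scaling, and 1 to 3 with 1 library left out. In fits chosen after seeing the data it was 11 without KO replicate 3 and WT replicate 1, and DESeq2 gave 83, 99 and 137 without KO replicate 3, without WT replicate 1 and without both. Within 10 Mb of Eif2ak4 the count of 0 became 2 with a pseudocount of 5, 9 with DESeq2, 1 with a window of 20 Mb and 0 to 1 with 1 library left out. With 1 library left out, the count of 4 for the difference between times was 0 to 4, and that of 0 for the difference between diets was 0 to 1061, the highest without KO replicate 3 on LeuD; edgeR gave 1 for the second. Tcp11l1 lost its call under edgeR, with a mean of at least 100, under the replicate block and without any 1 library, with a difference of 1.58 to 1.73. The cause of these changes was not tested.

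Replicate numbers were not taken to pair the mice. A fit with the replicate block called 1 gene at CT03, 1 for the difference between times and 0 for that between diets.

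Of 1276 alternatives for 116 named genes, 14 that left out 1 library and 2 others turned a direction. With 1 library left out, differences ranged over -0.026 to 0.34 for Pparg, -0.59 to 0.21 for Atf5, -0.80 to 0.072 for Gdf15, -0.41 to 0.22 for Nupr1, -0.23 to 1.15 for Npas2, -0.42 to 0.78 for Per1, -0.66 to 1.08 for Per3, -0.61 to 0.036 for Cry1, -0.055 to 1.06 for Nr1d1, -0.92 to 2.06 for Dbp and -0.63 to 0.52 for Arntl. Arntl was 0.079 with edgeR and 0.085 with DESeq2. None of these was called. Which calls depth limits was not tested at 34133203 to 40259270 reads per library.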
